A study of Mus musculus with 13 samples.

Results

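This account describes 51 interferon-stimulated genes, with Phf11d among them, in mouse haematopoietic stem cells (HSCs) that differ in the blood lineages they had produced. The members were taken from a named list of genes that interferon is known to induce, by the condition that the symbol stands in the count table. The list was drawn up with earlier results of these data known. Among these was that Phf11d, named in the list's label, had passed the test for a difference between groups. All 51 were in the table of 24015 gene symbols, and all 51 passed the filter on low counts that left 12536 genes for testing. The study transplanted 1 Vwf+ HSC from mouse bone marrow into each primary recipient and read the lineages it gave over 16 weeks. Donor-derived HSCs were then sorted from recipient marrow as Lineage- Sca1+ Kit+ (LSK) Flt3- CD150+ CD48- CD45.2+ Gata1- cells of strain C57BL/6, at 100 cells per library. PLT-HSC (3 libraries) came from recipients with P-restricted reconstitution, PEM-HSC (6 libraries) from PEM-restricted ones, and MUL-HSC (4 libraries) from multilineage ones. All groups share the single-cell transplantation, the recipient marrow and the sorting gate. The labels do not say which libraries came from separate recipients, so p-values cover only library-to-library spread, part of which may be technical.

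Interferons are secreted proteins that bind paired receptors on the cell surface. Kinases bound to the receptors then activate transcription factors that act on the interferon-stimulated response element (ISRE) for type I and type III interferons, and on the gamma-activated site (GAS) for type II interferon. HSCs respond to interferon, which can move them from quiescence into division, and stem cells are known to hold some interferon-stimulated genes at a basal level without added interferon.

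The regulatory sequence of the members is shown first, since the genes were grouped by what induces them. RefSeq promoter windows of build GRCm38.p6, from 250 bases before to 50 bases after the gene's start, were held for 40 of the 51. The ISRE core was searched as 2 GAAA blocks with any 2 bases between them, on both strands, and was found in the windows of 21 members, or 52.5% of the 40. It was found in 3.79% of the 9427 tested genes that have a window. The GAS core TTCNNNGAA stood in 12 members (30%) and in 8.39% of those 9427 genes. In the 22-base stretches that follow, chosen for members whose levels are described later and for Irgm2, the neighbour of Igtp, the capitals mark the 10-base ISRE match and each stretch is written along the strand that carries it.
Rsad2: ttttctGAAAATGAAAgttgga
Oas1a: gaaatgGAAACTGAAAatctac
Gbp3: gaaataGAAACTGAAActgtgt
Gbp7: agaactGAAACTGAAActgcac
Igtp: ggaactGAAACTGAAAgctgtt
Irgm2: ggaactGAAACTGAAAgctgtt
Ifit1: cagtgaGAAACTGAAActgaga
Ifih1: agaatcGAAACAGAAAccgatc
Ifitm3: ttctgaGAAACCGAAActgccg
The Rsad2 stretch lies at chr12:26456557-26456578 on the plus strand and its match begins 120 bases before the gene's start, while that of Oas1a lies at chr5:120907524-120907545 on the minus strand, 14 bases before it. The Gbp3 stretch, at chr3:142559993-142560014, and the Gbp7 stretch, at chr3:142530277-142530298, are both on the minus strand, 45 and 53 bases before the start. The neighbouring genes Igtp and Irgm2 carry the same 22 letters, at chr11:58199516-58199537 and chr11:58214907-58214928 on the plus strand, 34 and 64 bases before the start. The Ifit1 stretch is at chr19:34640798-34640819 on the minus strand, 85 bases before the start. The matches of Ifih1, at chr2:62646208-62646229, and Ifitm3, at chr7:141010710-141010731, both on the minus strand, fall 32 and 19 bases after the start, within the transcribed stretch. Of 31 matches in the 21 members, at least 1 stood before the start in 17 members, and 9 members had 2 or more.

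The Phf11d window held neither core. It is shown because Phf11d is the member with the smallest p, from 250 bases before the start to 25 bases from it, at chr14:59365466-59365740 on the minus strand.
Phf11d: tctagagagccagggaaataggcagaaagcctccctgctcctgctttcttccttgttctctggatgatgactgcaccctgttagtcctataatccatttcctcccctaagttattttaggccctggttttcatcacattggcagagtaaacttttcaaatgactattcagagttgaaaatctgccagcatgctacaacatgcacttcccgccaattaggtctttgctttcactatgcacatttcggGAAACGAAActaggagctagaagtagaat
The capitals mark GAAACGAAA, 2 GAAA blocks 1 base apart in place of the 2 of the searched core, which spans the start from 4 bases before it to 4 after it. This spacing was looked for after the Phf11d window had been read. GAAANGAAA stood in 11 of the 40 member windows (27.5%) and in 3.08% of the 9427 tested genes, and the wider form with 3 bases between the blocks in 8 members (20%) and in 2.73% of tested genes. The Phf11d window also held the wider form, at positions 28 and 35 after the start. The windows of its paralogs Phf11a and Phf11b each held the searched ISRE core. A match of letters is a description of the window and does not show that a factor binds there.

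Depth ran from 16371921 to 41367057 gene counts per library and 11233 to 12310 genes had a count. Between 47 and 51 members had a count in each library. Levels are given as CPM, counts per 1000000 after scaling by the total and the TMM factor of each library, and 3 counts correspond to 0.0693 to 0.183 CPM. The HSC marker list summed to 2450 to 2740 CPM (MUL-HSC), 2714 to 3470 CPM (PEM-HSC) and 2702 to 4370 CPM (PLT-HSC). Of its 12 genes 10 were positive in PLT-HSC against MUL-HSC (median log2 fold change 0.72) and 9 in PEM-HSC against MUL-HSC (median 0.52), with 1 called in the former, Ctnnal1, and 0 in the latter. The defining T cell markers Cd3d, Cd3e, Cd3g, Cd4 and Cd8a, the natural killer cell marker Ncr1, the B cell markers Ms4a1 and Pax5 and the plasmacytoid dendritic cell marker Siglech were at 0 in all 13 libraries. Other genes of these lists were present, with the B cell receptor subunit gene Cd79b at 91.5 to 182 CPM and the granule protein gene Nkg7 at 116 to 201 CPM in MUL-HSC, at most 145 in PEM-HSC with a median of 83.1, and 8.39, 2.90 and 123 in PLT-HSC. The natural killer receptor gene Klrb1c was at 0, 0, 30.9 and 0.0462 CPM in MUL-HSC, 39.0 to 225 in PEM-HSC with a median of 63.4, and 371, 169 and 24.7 in PLT-HSC. Markers of macrophages and monocytes (11 of 12 listed in the table) summed to 15.5 to 33.5 CPM (MUL-HSC), 32.6 to 87.3 CPM (PEM-HSC) and 33.0 to 43.8 CPM (PLT-HSC). Of the 8 tested, 3 were positive in PLT-HSC against MUL-HSC (median log2 fold change -0.44) and 6 in PEM-HSC against MUL-HSC (median 1.72). Mertk was at 0 in the 4 MUL-HSC libraries and at 16.5, 0 and 17.8 CPM in PLT-HSC. Cd163 went the other way, at 12.4, 9.33, 5.68 and 15.2 CPM in MUL-HSC and 3.45, 3.09 and 2.96 in PLT-HSC. The macrophage receptor Csf1r was at 0 in 12 of the 13 libraries. Neutrophil markers summed to at most 14.5 CPM in any library. The summed HSC and macrophage lists and Klrb1c were lowest on average in MUL-HSC, as most members were, though most tested macrophage genes were not higher in PLT-HSC. Their part in the results was not tested. With bulk RNA, fewer cells expressing a gene and less RNA per cell cannot be told apart.

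The members spanned a wide range of levels. Per kilobase of exon (GENCODE vM21), the mean over all libraries was highest for the interferon-induced transmembrane genes, at 3232 CPM per kilobase for Ifitm3, 1799 for Ifitm2 and 1261 for Ifitm1, followed by 734 for Ly6e. Phf11d stood at 37.3 CPM per kilobase. The antiviral GTPase genes Mx1 and Mx2 were lowest, at 0.614 and 0.924, and Isg15, which encodes a ubiquitin-like modifier, stood at 5.28. There were 5 members with no count in at least 1 library, and Mx1 had none in 8 of the 13.

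**Figure D1:**
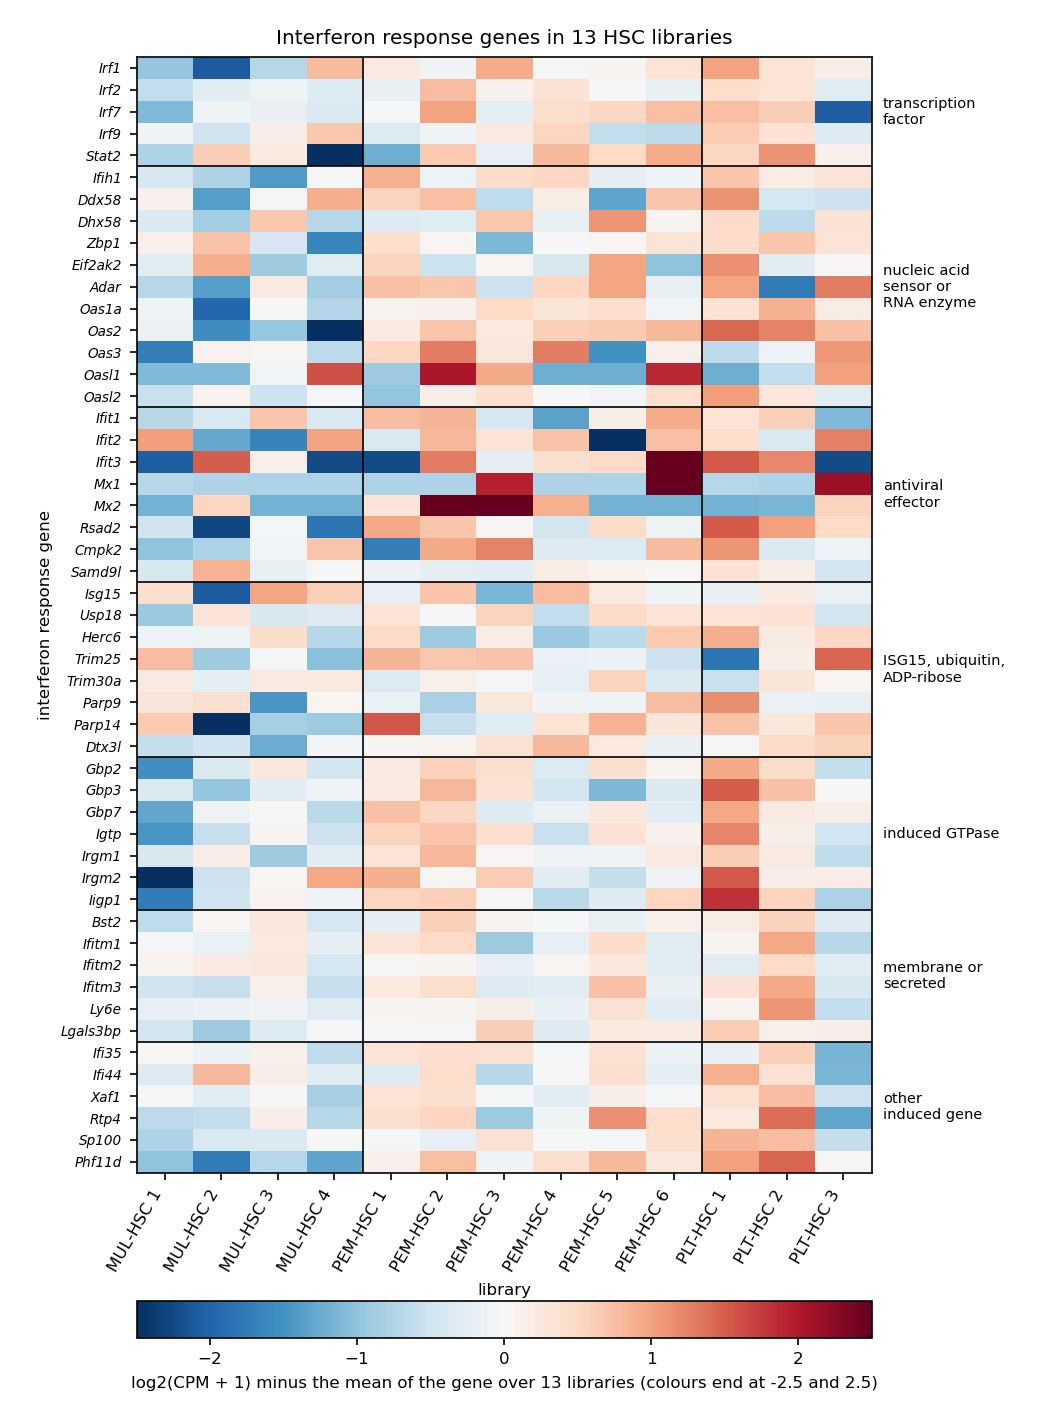
Level of each of the 51 interferon response genes (rows, grouped by role) in 13 libraries (columns), as log2(CPM + 1) minus the gene's mean over the 13 libraries. Blue cells dominate in MUL-HSC 1, 2 and 4 and red cells in PLT-HSC 1 and 2, while MUL-HSC 3 and PLT-HSC 3 are mixed.

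The first comparison asked how HSCs with P-restricted output differ from multilineage HSCs. In PLT-HSC against MUL-HSC, 46 of the 51 members had a positive log2 fold change (90.2%), against 52.4% of all tested genes. Their median log2 fold change was 0.61, against 0.039 for all tested genes. In edgeR's quasi-likelihood test with Benjamini-Hochberg adjustment over all 12536 genes, 1 member passed at an adjusted p under 0.05, Phf11d, against 0.0479% of all tested genes. That call was known when the list was drawn up, so it is given as a description only. At an unadjusted p under 0.05, 14 members were higher and 0 were lower, against 4.11% and 3.26% of all tested genes. The 14 became 8 without PLT-HSC 1, 21 without PLT-HSC 3 and 8 without both MUL-HSC 1 and 2. In these fits 769 of 12998, 1036 of 12996 and 565 of 12963 genes were under that threshold in either direction. In the reported fit 924 of 12536 were. In 9 members the lowest PLT-HSC library exceeded the highest MUL-HSC one (3.66% of all tested genes) and in 0 the reverse held (2.93%). Phf11d, known beforehand, is among the 14 and among the 9. The summed level of 8 cell cycle genes was also used as a covariate, chosen after seeing the data. With it 39 members were positive with a median of 0.36, and 0 were called. At an unadjusted p under 0.05, 6 members were higher, and 787 of 12536 genes passed in either direction.

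PEM-HSC was set against the same 4 MUL-HSC libraries, so the 2 comparisons are not independent. Here 45 of 51 members were positive (88.2%, all tested genes 50.7%), with a median log2 fold change of 0.50 against 0.0094 for all tested genes. By edgeR with Benjamini-Hochberg adjustment 0 members were called, while the rate over all genes was 0.00798%. DESeq2 called 1 member, Phf11d, and 177 of all 12536 genes, while limma voom called 0 members and 1 gene. At an unadjusted p under 0.05, 10 members were higher and 0 lower (3.84% and 2.09% of all tested genes). The 10 include Phf11d, known beforehand, and Mx1. Mx1 had no count in 4 of the 6 PEM-HSC libraries and at most 0.0466 CPM in MUL-HSC, so nothing is read from it. The 10 became 16 without PLT-HSC 3, a library of neither group, and 5 without both MUL-HSC 1 and 2. In these fits 918 of 12996 and 443 of 12963 genes were under that threshold in either direction. In the reported fit 744 of 12536 were. All PEM-HSC libraries lay above all MUL-HSC libraries in 2 members, Phf11d and Oas2, and below in 0 (0.862% and 0.646% of all tested genes).

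PLT-HSC was then set against PEM-HSC, where 37 members were positive (72.5%, all tested genes 51.5%), with a median log2 fold change of 0.15 against 0.017 for all tested genes. The edgeR test called 0 members and 0% of all genes. At an unadjusted p under 0.05, 1 member was higher and 0 lower (1.58% and 2.15% of all tested genes). These became 5 and 0 without PLT-HSC 3, and 0 and 4 with the cell cycle covariate. In these 2 fits 615 of 12996 and 586 of 12536 genes were under that threshold in either direction. In the reported fit 467 of 12536 were. DESeq2 and limma voom also called 0 members, and 115 and 1 of all tested genes. The groups overlapped in all 51 members, while 1.21% of all tested genes had PLT-HSC wholly above PEM-HSC and 0.933% wholly below. The median changed with single libraries, falling to -0.019 without PLT-HSC 1 and rising to 0.41 without PLT-HSC 3.

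Taken by group mean of log2 CPM, MUL-HSC was the lowest of the 3 groups in 43 members (84.3%), against 37.1% of all tested genes. PLT-HSC was the highest in 32 members (62.7%), against 38.5% of all tested genes. The order of PLT-HSC and PEM-HSC depended on single libraries. Against PEM-HSC, 23 of 51 members were positive without PLT-HSC 1 and 39 without PLT-HSC 3. Phf11d and Oas2 were the members in which all 4 MUL-HSC libraries lay below all 9 others, a split found in 0.399% of all tested genes. That Phf11d differed between groups was known when the list was drawn up, so its part in this count is a description only.

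**Figure D2:**
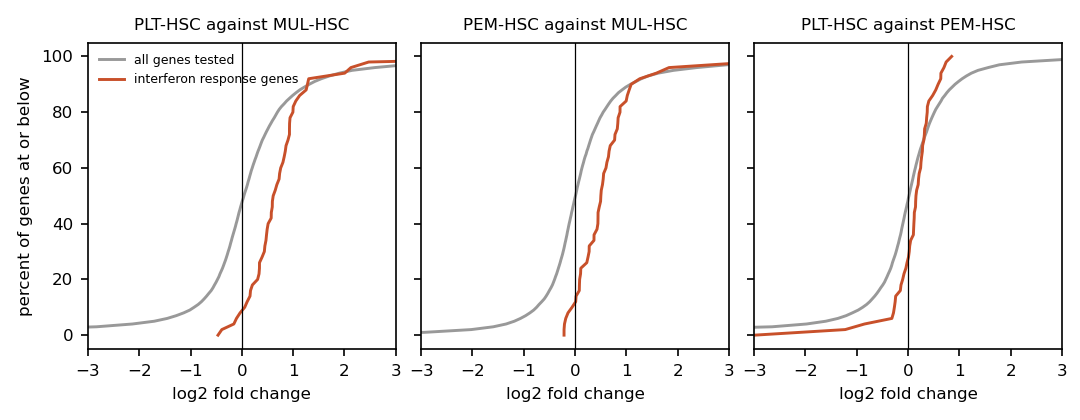
Percent of genes (vertical axis) at or below each log2 fold change (horizontal axis) for the 51 interferon response genes and all 12536 tested genes, with 1 panel per comparison. The member curve lies to the right of the grey curve around 0 against MUL-HSC, where the member medians are 0.61 and 0.50, and close to it in PLT-HSC against PEM-HSC.

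Phf11d encodes a PHD finger protein of a small family of neighbouring genes. Its level was 68.6, 40.6, 84.7 and 55.0 CPM in MUL-HSC 1 to 4. In PEM-HSC it ran from 132 to 246 CPM with a median of 178, and in PLT-HSC it was 287, 386 and 142 CPM. All 9 PEM-HSC and PLT-HSC libraries lay above the highest MUL-HSC library, and PLT-HSC 3 lay within the PEM-HSC range. The group means were 62.2 ± 18.8 (SD, n = 4), 187 ± 45.6 (SD, n = 6) and 271 ± 123 CPM (SD, n = 3).

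Phf11d rose 4.36-fold in PLT-HSC against MUL-HSC, a log2 fold change of 2.13 with a standard error (SE) of 0.33 (edgeR adjusted p = 0.0289, the third smallest p of all tested genes). Against MUL-HSC, PEM-HSC was higher by a log2 fold change of 1.59 (SE 0.29), which missed the threshold (edgeR adjusted p = 0.126). PLT-HSC against PEM-HSC gave 0.54 (edgeR adjusted p = 1, SE 0.30). The call in PLT-HSC against MUL-HSC was lost when any 1 of MUL-HSC 1, 2 or 4 or of PLT-HSC 1 or 2 was left out, with edgeR adjusted p from 0.0544 to 0.135, and also with the cell cycle level as a covariate (log2 fold change 1.76, edgeR adjusted p = 0.0611). With that covariate PEM-HSC against MUL-HSC passed instead (1.59, edgeR adjusted p = 0.0333). Over all alternatives the adjusted p of Phf11d ran from 2.1e-07 to 0.554 in the first comparison and from 6.68e-06 to 1 in the second.

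The Phf11 genes are paralogs with stretches of the same sequence, and how reads shared by them were counted is not given in the sources used here. Of the 50-base words in the GENCODE vM21 transcripts of Phf11d, 7.83% also stood in a transcript of Phf11a, Phf11b or Phf11c, and of those of Phf11b 38.8% stood in another of the 4 genes. Phf11d made up 40.1% to 71.3% of the summed Phf11a, Phf11b, Phf11c and Phf11d level in MUL-HSC, against 61.9% to 87.1% (PEM-HSC) and 77.6% to 82.6% (PLT-HSC). Phf11b was at 57.4, 60.7, 33.0 and 43.9 CPM in MUL-HSC, 30.9 to 83.2 in PEM-HSC with a median of 49.5, and 55.8, 78.1 and 30.8 in PLT-HSC. Its groups overlapped, with a log2 fold change of 0.17 (SE 0.41) in PLT-HSC against MUL-HSC (edgeR adjusted p = 0.999). The summed level of the 4 genes was 101 to 126 CPM (MUL-HSC), 188 to 282 CPM (PEM-HSC) and 182 to 471 CPM (PLT-HSC), so the groups that did not overlap for Phf11d did not overlap for the sum either. Phf11a had at most 0.0231 CPM in MUL-HSC, below the floor of 3 counts, and 4.70, 3.35 and 0.922 CPM in PLT-HSC (edgeR adjusted p = 0.631). Phf11c stayed under 10 CPM in every library.

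**Figure D3:**
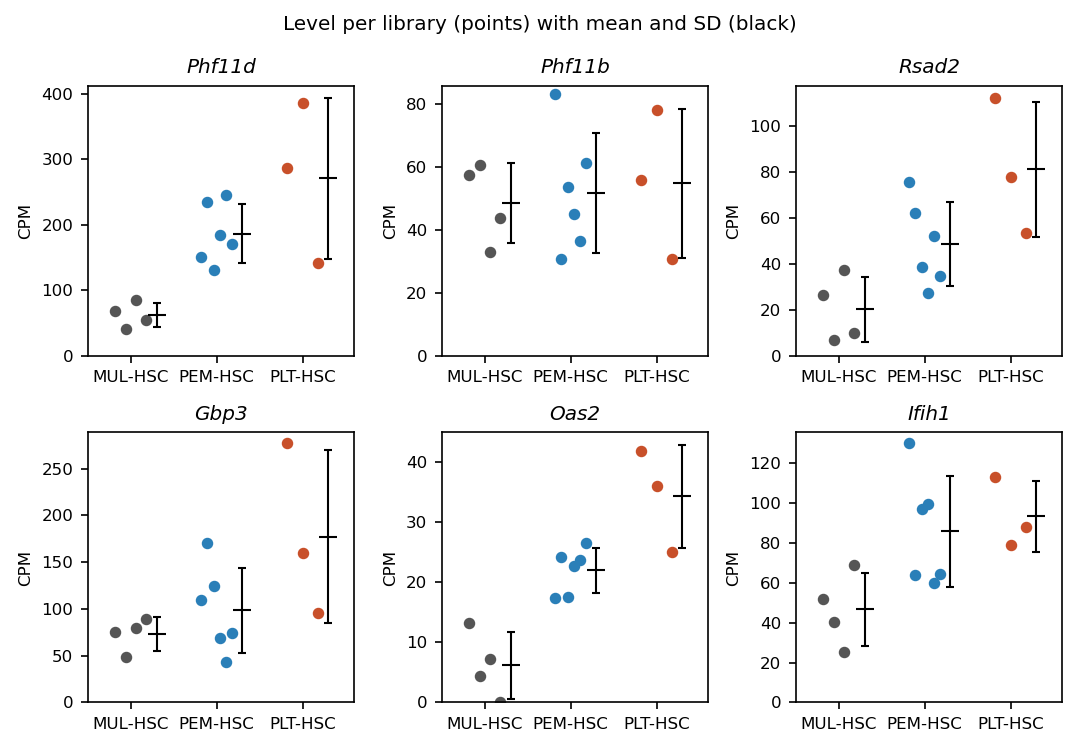
Level in CPM (vertical axis) of Phf11d, its paralog Phf11b, Rsad2, Gbp3, Oas2 and Ifih1 in each library (points) by group, with mean and SD in black. MUL-HSC points lie below all others for Phf11d and Oas2, while the 3 groups of Phf11b overlap.

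Among the transcription factors, all 5 members were positive in PLT-HSC against MUL-HSC (median log2 fold change 0.61) and 4 of 5 in PEM-HSC against MUL-HSC (median 0.66). None passed the test in any comparison. Irf2, which competes with IRF1 at interferon response sites, was at 114, 147, 161 and 140 CPM in MUL-HSC, 153 to 298 in PEM-HSC with a median of 182, and 238, 221 and 141 in PLT-HSC. Irf9, the DNA-binding subunit of the ISGF3 complex, was at 140, 107, 169 and 240 CPM in MUL-HSC, 95.6 to 220 in PEM-HSC with a median of 131, and 236, 195 and 121 in PLT-HSC. The groups overlapped for both. Irf9 was the factor with a negative value in PEM-HSC against MUL-HSC, a log2 fold change of -0.20 (SE 0.28).

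The nucleic acid sensors and RNA enzymes had 10 of 11 members positive in PLT-HSC against MUL-HSC (median 0.68) and 11 of 11 in PEM-HSC against MUL-HSC (median 0.77). Oas2 encodes an enzyme that makes 2'-5'-linked oligoadenylate on double-stranded RNA and so activates RNase L. It stood at 13.2, 4.36, 7.15 and 0 CPM in MUL-HSC, at 17.3 to 26.5 in PEM-HSC with a median of 23.2, and at 41.7, 36.0 and 25 in PLT-HSC. The 3 groups were in the order MUL-HSC, PEM-HSC, PLT-HSC, with PLT-HSC 3 within the PEM-HSC range. The log2 fold change was 2.47 (SE 1.05) in PLT-HSC against MUL-HSC and 1.83 (SE 0.93) in PEM-HSC against MUL-HSC, and neither passed (edgeR adjusted p = 0.646 and 0.911).

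Ifih1, which encodes the double-stranded RNA sensor MDA5, was at 52.1, 40.2, 25.4 and 68.9 CPM in MUL-HSC, 59.7 to 130 in PEM-HSC with a median of 80.7, and 113, 78.9 and 87.9 in PLT-HSC. PLT-HSC lay wholly above MUL-HSC, with a log2 fold change of 1.0 (edgeR adjusted p = 0.589, SE 0.36). PEM-HSC overlapped MUL-HSC at its lower end, with a log2 fold change of 0.88 (edgeR adjusted p = 0.727, SE 0.31). Oas1a, another oligoadenylate synthetase and one of the members named here for its groups after its values were seen, was at 47.0, 12.4, 51.6 and 30.3 CPM in MUL-HSC and 66.1, 95.5 and 57.9 in PLT-HSC, which did not overlap. Oasl2 was at 89.8, 141, 92.4 and 131 CPM in MUL-HSC, 66.2 to 178 in PEM-HSC with a median of 138, and 274, 162 and 111 in PLT-HSC, with overlap throughout.

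Of the 8 antiviral effectors, 7 were positive in each comparison with MUL-HSC (medians 0.49 for PLT-HSC and 0.77 for PEM-HSC). Rsad2 encodes viperin, a radical SAM enzyme that makes a chain-terminating nucleotide. It was at 26.7, 7.07, 37.2 and 9.98 CPM in MUL-HSC, 27.4 to 75.5 in PEM-HSC with a median of 45.5, and 112, 77.8 and 53.5 in PLT-HSC. PLT-HSC lay wholly above MUL-HSC, and PEM-HSC overlapped both. The PLT-HSC to MUL-HSC log2 fold change was 2.0 (edgeR adjusted p = 0.271, SE 0.53). DESeq2 called it (DESeq2 adjusted p = 0.0187), among 2 members and 262 of all 12536 tested genes called by DESeq2 in that comparison. Over all alternatives the adjusted p of Rsad2 ran from 0.0187 to 0.963.

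Samd9l, which encodes a growth-restricting antiviral protein, went the other way in sign, with log2 fold changes of -0.11 (SE 0.29) and -0.21 (SE 0.24) against MUL-HSC. Its levels were 114, 275, 133 and 152 CPM in MUL-HSC, 126 to 171 in PEM-HSC with a median of 145, and 193, 169 and 108 in PLT-HSC. Ifit1, a cap-sensing translation inhibitor, was at 42.6, 52.7, 112 and 52.6 CPM in MUL-HSC, 26.9 to 133 in PEM-HSC with a median of 97.6, and 88.4, 105 and 31.8 in PLT-HSC. Both genes overlapped across all 3 groups. Mx1 reached 18.1 CPM in 1 PEM-HSC library and 6.51 in 1 PLT-HSC library and was at or below 1 count in all 4 MUL-HSC libraries, so no fold is given for it.

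The ISG15, ubiquitin and ADP-ribose system had medians of 0.52 in PLT-HSC and 0.27 in PEM-HSC against MUL-HSC, with 6 of 8 members positive in each. Dtx3l, a ubiquitin ligase that partners PARP9, was at 45.4, 48.5, 28.7 and 66.0 CPM in MUL-HSC, 60.7 to 122 in PEM-HSC with a median of 77.9, and 68.4, 97.1 and 104 in PLT-HSC. PLT-HSC lay above MUL-HSC in every library, with a log2 fold change of 0.93 (edgeR adjusted p = 0.560, SE 0.32). PEM-HSC gave 0.82 (edgeR adjusted p = 0.670, SE 0.28) with an overlap. Dtx3l overlaps Parp9 in the RefSeq annotation, and with the strand setting not given in the sources used here their reads cannot be told apart where they overlap. Parp9 itself had log2 fold changes of 0.45 (SE 0.49) and 0.09 (SE 0.42).

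Trim30a, a regulator of NF-kappaB and inflammasome signalling, was at 168, 124, 169 and 171 CPM in MUL-HSC, 112 to 213 in PEM-HSC with a median of 133, and 97.5, 179 and 149 in PLT-HSC. Its log2 fold changes were -0.16 (SE 0.27) and -0.14 (SE 0.22) against MUL-HSC. Herc6, the mouse ISG15 ligase, was at 57.9, 56.7, 85.9 and 37.2 CPM in MUL-HSC and 32.3 to 98.8 in PEM-HSC with a median of 54.4. In PLT-HSC it was at 117, 73.1 and 89.8 CPM, and no pair of groups was separate. Isg15 itself was at 7.76 CPM or less in every library.

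The interferon-induced GTPases, some of which coat and disrupt pathogen vacuoles, were all positive in both comparisons with MUL-HSC (7 of 7). Their median in PLT-HSC against MUL-HSC, 0.93, was the largest of the 7 role groups, and 5 of the 7 were higher at an unadjusted p under 0.05 (4.11% of all tested genes). PLT-HSC 1 was the highest of all 13 libraries for Gbp2, Gbp3, Gbp7, Igtp, Irgm2 and Iigp1. PLT-HSC 3 lay within the MUL-HSC range for Gbp2, Igtp, Irgm1, Irgm2 and Iigp1. In PEM-HSC against MUL-HSC the median was 0.60. Gbp3, a guanylate-binding protein, was at 74.8, 48.3, 80.0 and 89.5 CPM in MUL-HSC, 43.5 to 170 in PEM-HSC with a median of 92.1, and 277, 160 and 95.3 in PLT-HSC. PLT-HSC lay above MUL-HSC throughout and PEM-HSC spanned both. Its log2 fold change was 1.28 (edgeR adjusted p = 0.496, SE 0.42) in PLT-HSC against MUL-HSC and 0.85 (edgeR adjusted p = 1, SE 0.38) in PLT-HSC against PEM-HSC, and the latter moved to 0.36 without PLT-HSC 1.

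Igtp and Iigp1 encode immunity-related GTPases and had the highest mean counts of the class. Igtp was at 164, 302, 468 and 313 CPM in MUL-HSC, 305 to 725 in PEM-HSC with a median of 586, and 1046, 494 and 323 in PLT-HSC. Iigp1 was at 81.3, 195, 292 and 254 CPM in MUL-HSC, 171 to 411 in PEM-HSC with a median of 336, and 960, 403 and 157 in PLT-HSC. PLT-HSC 1 had the highest and MUL-HSC 1 the lowest level of each over all 13 libraries, and the groups overlapped. The PLT-HSC to MUL-HSC log2 fold change was 0.99 (SE 0.38) for Igtp and 1.30 (SE 0.49) for Iigp1 (edgeR adjusted p = 0.630 for both). Iigp1 in PLT-HSC against PEM-HSC went from 0.70 (SE 0.44) to -0.17 without PLT-HSC 1. Gbp7, named after its values were seen, was at 77.4, 175, 194 and 120 CPM in MUL-HSC and 375, 224 and 211 in PLT-HSC, which did not overlap.

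The membrane and secreted proteins were positive in 5 of 6 members in each comparison with MUL-HSC (medians 0.46 and 0.24). Ifitm3, a membrane protein that blocks fusion of enveloped viruses, was at 1458, 1383, 2241 and 1383 CPM in MUL-HSC, 1645 to 3437 in PEM-HSC with a median of 2115, and 2635, 3997 and 1561 in PLT-HSC. Ly6e, a GPI-anchored surface protein, was at 2315, 2365, 2433 and 2143 CPM in MUL-HSC, 2198 to 3480 in PEM-HSC with a median of 2794, and 2841, 5745 and 1727 in PLT-HSC. For both genes PLT-HSC 3 was well below the other PLT-HSC libraries and the groups overlapped. The secreted glycoprotein gene Lgals3bp was at 285, 210, 310 and 384 CPM in MUL-HSC, 314 to 602 in PEM-HSC with a median of 426, and 605, 429 and 439 in PLT-HSC. PLT-HSC lay above MUL-HSC throughout, with a log2 fold change of 0.73 (edgeR adjusted p = 0.496, SE 0.24), and PEM-HSC gave 0.56 (edgeR adjusted p = 0.727, SE 0.20).

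Besides Phf11d, the remaining induced genes were Ifi35, Ifi44, Xaf1, Rtp4 and Sp100. Rtp4, a transporter-like protein that restricts RNA viruses, was at 202, 209, 359 and 195 CPM in MUL-HSC, 170 to 703 in PEM-HSC with a median of 427, and 379, 840 and 129 in PLT-HSC. Sp100, a nuclear body component, was at 128, 170, 172 and 224 CPM in MUL-HSC, 193 to 293 in PEM-HSC with a median of 218, and 400, 376 and 146 in PLT-HSC. PLT-HSC 3 fell within or below the MUL-HSC range for both. The PLT-HSC to MUL-HSC log2 fold change was 0.90 (SE 0.48) for Rtp4 and 0.82 (SE 0.29) for Sp100 (edgeR adjusted p = 0.754 and 0.589).

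**Figure D4:**
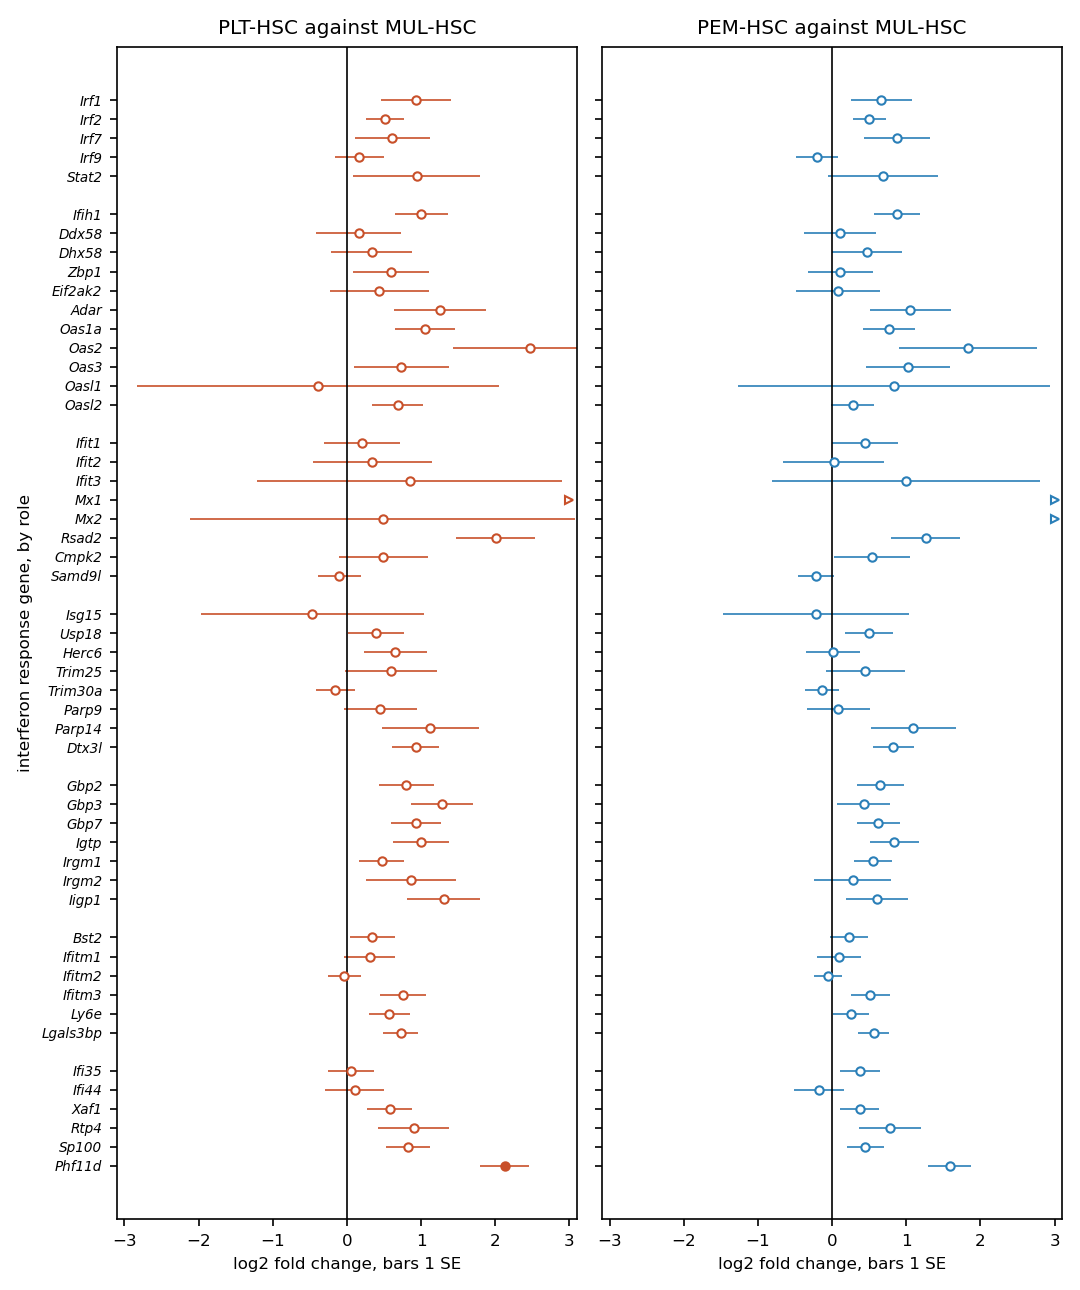
Log2 fold change (points, horizontal axis) with 1 SE (bars) of the 51 interferon response genes against MUL-HSC, in 7 blocks by role. The filled point is the called member, Phf11d in PLT-HSC, triangles mark values beyond the axis, and most points lie right of 0, 46 in the left panel and 45 in the right.

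The members did not move alike in every library. For each library, the median over members of the deviation from the gene's own mean log2 CPM was -0.49, -0.39, -0.018 and -0.37 in MUL-HSC 1 to 4. It ran from -0.043 to 0.48 in PEM-HSC, and was 0.63, 0.37 and -0.0076 in PLT-HSC 1 to 3. The same median over all tested genes lay between 0.0035 and 0.11 in every library. MUL-HSC 3 and PLT-HSC 3 therefore stood near the middle, away from the other libraries of their groups. PLT-HSC 1 was the highest of the 13 libraries in 17 members (33.3%, against 8.87% of all tested genes), and PLT-HSC 3 in 3. MUL-HSC 1 and MUL-HSC 2 were each the lowest library in 11 members.

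Cell cycle genes also differed between these libraries, for the most part in the opposite direction to the members. The summed level of Mki67, Top2a, Ccna2, Ccnb1, Cdk1, Birc5, Aurkb and Plk1 was 539, 544, 93.4 and 390 CPM in MUL-HSC 1 to 4, 116 to 912 in PEM-HSC with a median of 296, and 29.3, 85.1 and 650 in PLT-HSC 1 to 3. In each group the library with the least cell cycle RNA (MUL-HSC 3, PEM-HSC 2 and PLT-HSC 1) had the highest median deviation of the members. In PEM-HSC and PLT-HSC the library with the most cell cycle RNA (PEM-HSC 4 and PLT-HSC 3) had the lowest. In MUL-HSC it did not, with a median deviation of -0.39 in MUL-HSC 2 (544 CPM) and -0.49 in MUL-HSC 1 (539 CPM). The progenitor marker Cd34, at 574, 470 and 363 CPM in MUL-HSC 1, 2 and 4, was at 91.0 in MUL-HSC 3 and at 21.5 to 105 in all 9 other libraries. With the cell cycle level as a covariate the member median stayed at 0.49 in PEM-HSC against MUL-HSC, with 45 positive, and was -0.013 in PLT-HSC against PEM-HSC, with 25 positive. Whether the level of one gene group follows from the other was not tested.

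**Figure D5:**
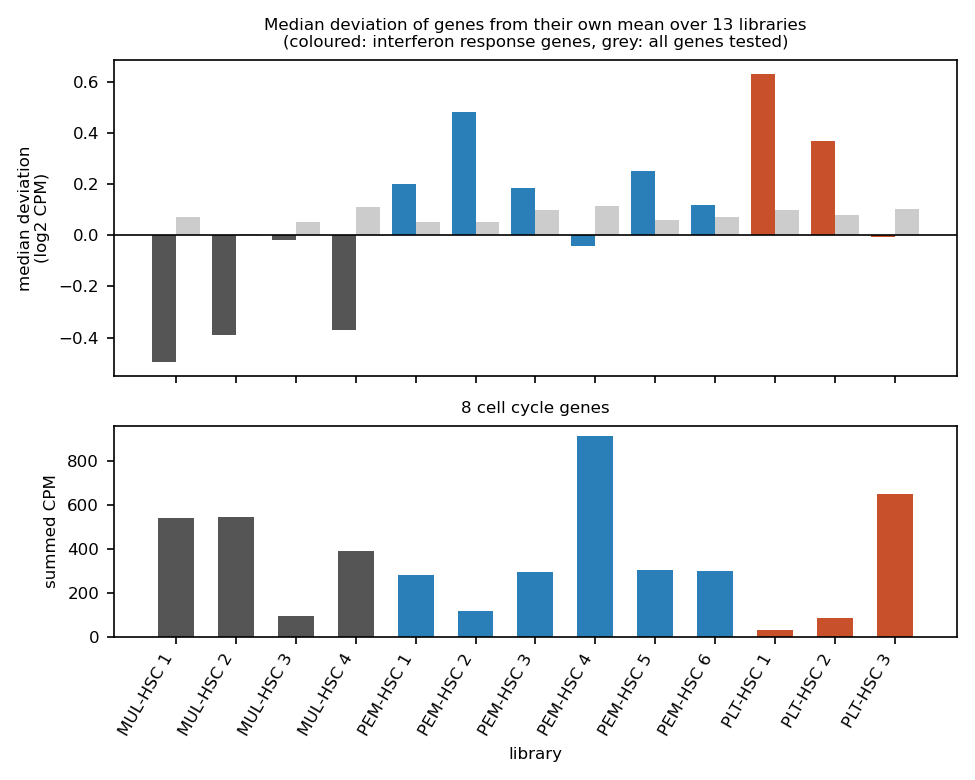
Top, median deviation in log2 CPM of the 51 interferon response genes (coloured) and of all tested genes (grey) from each gene's mean over 13 libraries. Bottom, summed CPM of 8 cell cycle genes in the same libraries, with MUL-HSC 3, PEM-HSC 2 and PLT-HSC 1 lowest in their groups.

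Spread between libraries of a group was also measured. Over members with a group mean of at least 10 CPM, the median coefficient of variation was 0.40 in MUL-HSC, 0.31 in PEM-HSC and 0.45 in PLT-HSC. Over all tested genes with a group mean of at least 10 CPM, not matched to the members in level, it was 0.34, 0.34 and 0.37.

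The rest of the pathway was described from lists drawn up from general knowledge. Of 21 interferon ligand genes, 19 were at 0 in all 13 libraries, among them Ifnb1 and Ifng, and the summed level of the ligands was at most 2.32 CPM, from Ifnz. Among 6 receptor genes 5 were tested and 0 called. Ifngr1, a subunit of the type II interferon receptor, was at 333, 289, 402 and 439 CPM in MUL-HSC, 289 to 504 in PEM-HSC with a median of 382, and 443, 325 and 168 in PLT-HSC. Ifnar2, a subunit of the type I receptor, had log2 fold changes of -0.10 (SE 0.28) and -0.012 (SE 0.24) against MUL-HSC. The groups overlapped for both receptors.

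The kinase genes Jak1, Jak2 and Tyk2, whose products signal from the receptors, were tested and 0 were called in any of the 3 comparisons by edgeR. In PEM-HSC against MUL-HSC the log2 fold changes of Jak1, Jak2 and Tyk2 were -0.19 (SE 0.15), -0.077 (SE 0.38) and -0.32 (SE 0.78). In PLT-HSC against MUL-HSC they were 0.27 (SE 0.18), 0.31 (SE 0.45) and -0.26 (SE 0.94), and PLT-HSC overlapped MUL-HSC for all 3 genes, while Jak1 in PLT-HSC lay wholly above PEM-HSC.

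Of 13 tested genes that induce interferon and 11 that inhibit its signalling, 0 were called. In each comparison with MUL-HSC 7 of the 13 inducers were positive. Samhd1, a dNTP hydrolase listed with the inhibitors, was at 84.2, 95.3, 77.9 and 100.0 CPM in MUL-HSC, 94.1 to 200 in PEM-HSC with a median of 147, and 294, 163 and 118 in PLT-HSC. PLT-HSC lay wholly above MUL-HSC, with a log2 fold change of 1.10 (edgeR adjusted p = 0.297, SE 0.30).

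In the list of further interferon-induced genes, 26 of 32 tested were positive in PLT-HSC against MUL-HSC (median 0.47) and 23 of 32 in PEM-HSC against MUL-HSC (median 0.37), with 0 called. Apol9a, an interferon-induced apolipoprotein L gene, was at 0 in all 4 MUL-HSC libraries, at 0.105 to 11.3 CPM in PEM-HSC with a median of 7.12, and at 14.3, 10.9 and 3.57 in PLT-HSC (edgeR adjusted p = 0.132 in PLT-HSC against MUL-HSC). Uba7, the activating enzyme of ISG15, was at 86.3, 129, 497 and 232 CPM in MUL-HSC, 344 to 581 in PEM-HSC with a median of 463, and 656, 607 and 302 in PLT-HSC. MUL-HSC 3 lay inside the range of the other groups for Uba7. Lgals9, another gene of this list, was at 1603, 1483, 1059 and 996 CPM in MUL-HSC and 855, 968 and 1034 in PLT-HSC, which overlapped.

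The promoter cores were set beside the fold changes. Among the 40 members with a window, the median PLT-HSC to MUL-HSC log2 fold change was 0.76 for the 21 with the ISRE core and 0.59 for the 19 without it, and 0.51 and 0.45 in PEM-HSC against MUL-HSC. In PLT-HSC against PEM-HSC the order turned, with 0.12 for members with the core and 0.20 for those without. The share of positive members was 85.7% with the core and 89.5% without it in PLT-HSC against MUL-HSC, and 85.7% and 84.2% in PEM-HSC against MUL-HSC. Among tested genes outside the member list, 336 held the core, of which 61.9% were positive in PLT-HSC against MUL-HSC, against 51.6% of the 9051 without it. The further interferon-induced genes were not removed from this set, which still holds Apol9a, Phf11a and Phf11b among the genes with the core. The shares were 54.8% and 50.1% in PEM-HSC against MUL-HSC. Phf11d, the called member, has no match to the searched core in its window, while Phf11b has one and did not pass. Windows without the searched core can hold other spacings, as that of Phf11d does. Whether the core bears on the fold changes was not tested.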

How the data were processed

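Polyadenylated RNA of 13 bulk libraries was measured by Smart-seq+ cDNA and Nextera XT sequencing, per the labels' protocols. Reads went through STAR and featureCounts on build mm9, with Trimmomatic and FastQC, per the submitters' processing notes, while versions and strand setting are not given in the sources used here. Raw read counts per gene symbol were what the authors deposited, without molecular identifiers, so that floors cover counting error only. The 92 ERCC rows were left out. Counts were analysed in R 4.3.3 with edgeR 4.0.16 (filterByExpr, TMM, robust quasi-likelihood fit over all 13 libraries, Benjamini-Hochberg over 12536 genes, called at an adjusted p under 0.05). CPM are counts over total gene counts times the TMM factor, and the log2 CPM of library medians used a prior count of 2. DESeq2 1.42.0, limma 3.58.1 voom and other settings were alternatives, and the procedure was tested on simulated counts. Replicate libraries differed beyond sampling noise, with a chi-square per degree of freedom of at least 163 over 24 pairs.

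The members, roles and pathway and marker lists were chosen with earlier results of these data known. Values per library were given for Phf11d, members called in any comparison, the 2 tested members of each role with the highest mean CPM, the 5 members with the smallest p in each comparison and the 3 with the largest ratio of group means among those reaching 10 CPM. In pathway lists the receptor examples are the 2 with the highest mean CPM, and the kinase genes were named as a set. Samhd1, Apol9a and Uba7 were picked by small p and Lgals9 by its high level. All were chosen after their values were seen. Promoter windows came from RefSeq tables of GRCm38.p6, later than the authors' build. Some genes of the pathway and marker lists are not reported here.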

Additional observations from a re-analysis of the deposited data

Results flagged for a closer look

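Within the groups of 4 MUL-HSC and 6 PEM-HSC libraries, Dixon's test asked whether the highest or lowest library stood apart, in 102 tests over the 51 members and 2 of the median deviation of the members. In 100 of the member tests 2 or more libraries were above 0, and of these 8 stood apart, where chance flags about 1 in 20 groups. MUL-HSC 3 was the high library in 3 of them, with Ifit1 at 112 CPM (the other 3 libraries 42.6 to 52.7), Ifitm3 at 2241 CPM (1383 to 1458) and Rtp4 at 359 CPM (195 to 209). The lowest Trim30a library of MUL-HSC was MUL-HSC 2, at 124 CPM against 168 to 171. In the remaining 2 member tests the other 3 MUL-HSC libraries were at 0, so that any count passes and nothing is read from it, with Mx1 at 0.0466 CPM in MUL-HSC 1, below the floor of 3 counts, and Mx2 at 2.30 CPM in MUL-HSC 2. In PEM-HSC, PEM-HSC 3 was highest for Irf1, at 228 CPM against 113 to 153, and lowest for Zbp1, at 14.0 CPM against 31.8 to 42.4. Bst2 was highest in PEM-HSC 2, at 135 CPM against 75.6 to 97.1, and Mx1 in PEM-HSC 6, at 18.1 CPM against 0 to 5.57.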

How the results depend on the processing

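Each result was recomputed under 25 alternatives, of which the cell cycle covariate and the joint omission of MUL-HSC 1 and 2 were chosen after seeing the data. The member medians against MUL-HSC stayed positive in all 25, from 0.36 to 0.75 for PLT-HSC and from 0.40 to 0.59 for PEM-HSC. They stayed within the SD of the library median deviations, a wide limit of 0.26 for PLT-HSC and 0.19 for PEM-HSC. The cell cycle covariate gave the lowest PLT-HSC value, 0.36 against 0.61 in the reported fit, close to that limit. The median of PLT-HSC against PEM-HSC turned to -0.013 with the cell cycle covariate and ran from -0.019 to 0.41 when 1 library was left out, and Iigp1 in that comparison turned to -0.29 with the covariate and ran from -0.17 (without PLT-HSC 1) to 1.12 (without PLT-HSC 3) with 1 library left out. Phf11d in PLT-HSC against MUL-HSC ran on the log2 scale from 1.78 to 2.43 with 1 library left out. It missed the threshold with limma voom (2.08), with only 2 groups in the fit (2.13), without MUL-HSC 1 and 2 (1.96) and with the cell cycle covariate (1.76). In PEM-HSC against MUL-HSC, Phf11d passed with DESeq2, with the cell cycle covariate and without PLT-HSC 3. Members called in PLT-HSC against MUL-HSC numbered 2 with DESeq2, 0 with limma voom, with 2 groups, without MUL-HSC 1 and 2 or with the covariate, and 0 to 1 with 1 library left out. In PEM-HSC against MUL-HSC they numbered 1 with DESeq2 or the covariate and 0 to 1 with 1 library left out. Genes called in PLT-HSC against MUL-HSC, 6 in the reported fit, numbered 11 without the filter, 13 with at least 10 CPM in 3 libraries, 262 with DESeq2, 0 with voom, 1 with 2 groups, without MUL-HSC 1 and 2 or with the covariate, and 1 to 37 with 1 library left out. Genes called in PEM-HSC against MUL-HSC, 1 in the reported fit, numbered 177 with DESeq2, 0 with 2 groups or with detected genes as a covariate, 5 with the cell cycle covariate, and 0 to 4 with 1 library left out. In PLT-HSC against PEM-HSC they numbered 115 with DESeq2, 1 with voom and 0 to 2 with 1 library left out. The cause of these differences was not tested. The groups share replicate numbers in the labels, but same-numbered libraries did not deviate together (correlations -0.13 to 0.048 over 10 pairs, and -0.094 to 0.15 over 44 differently numbered pairs). With the replicate number as a block, Phf11d in PLT-HSC against MUL-HSC was at 2.01 and not called, 2 genes and 0 members were called there, and 0 genes in PEM-HSC against MUL-HSC.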
